A study of Saccharomyces cerevisiae with 6 samples.

Results

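The cytosolic ribosomal protein genes of Saccharomyces cerevisiae were taken as the genes whose symbols on the array platform begin with RPL or RPS followed by a number, together with the 5 stalk genes RPP0, RPP1A, RPP1B, RPP2A and RPP2B. Of 137 such symbols in the RefSeq annotation of assembly R64, 127 had a probe set listed under that symbol, among 5449 tested genes. They comprise 75 genes of the large subunit, the stalk included, and 52 of the small subunit. The other 10 were not analysed here. Transcripts were measured on 6 Affymetrix arrays, 3 with RNA of wild-type FY4, a prototrophic S288C-lineage laboratory strain, and 3 with RNA of a mutant deleted for GCR2. Both strains were harvested in exponential growth on glucose minimal medium, shaken at 30 °C. The labels give no strain name for the mutant and do not say whether it is 1 clone or whether each replicate was a culture of its own. The p-values therefore rest on the variation among these arrays, part or all of which may be technical.

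The cytosolic ribosome carries each of its proteins in a single copy apart from the stalk dimers, and most of these proteins in S. cerevisiae are encoded by a pair of near-identical paralogous genes, named A and B. The genes are among the most highly transcribed in growing cells. Most of their promoters bind Rap1, with Fhl1, Ifh1 and Sfp1, and their transcription follows nutrient signals. Rap1 also binds the promoters of glycolytic genes, where it works with Gcr1 and its partner Gcr2, and Gcr1 has been reported at ribosomal protein genes as well. The comparison therefore addresses whether transcripts of ribosomal protein genes differ when Gcr2 is absent.

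Levels are log2 values of the authors' RMA intensities, and changes are deletion minus wild-type on that log2 scale. GCR2 itself was at 11.09, 11.06 and 11.17 on the wild-type arrays and at 4.69, 4.42 and 4.66 on the deletion arrays, under background on all 3 of the latter, at least 27.5-fold lower (limma adjusted p = 1.01e-06). Markers of mating type a, the type of FY4, were high in both groups, with STE2 at 14.16 and 14.23; of 5 such genes BAR1 rose by 0.22 and 4 were not called. The 4 markers of mating type alpha lay between 6.87 and 10.12 in wild-type and between 6.55 and 10.34 in the deletion, and STE3 rose from 7.53 to 8.44. Of 4 classes of control probe sets, 3 were lower by about 1 log2 unit on the deletion arrays. The 18S ribosomal RNA controls averaged 14.24 ± 0.07 on wild-type and 13.22 ± 0.13 on deletion arrays (SD, n = 3), the 25S controls 13.53 ± 0.16 and 12.24 ± 0.47, and poly-A spike-in controls 7.98 ± 0.45 and 7.00 ± 0.31. Hybridization controls averaged 11.58 ± 0.05 and 11.43 ± 0.24, with overlapping arrays. The spike-in controls, which are bacterial transcripts added to the RNA, moved with the ribosomal RNA controls, and RMA equalises the arrays, so the changes given here are relative to the remainder of the array.

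Few ribosomal protein transcripts differed detectably between the strains, and most estimated changes were small. A gene was called at a limma Benjamini-Hochberg adjusted p under 0.05 over all tested genes. Of the 127 genes, 1 fell (RPS9A), 0 rose and 126 did not pass, against 22.5% of all tested genes called in either direction (14.1% higher, 8.35% lower). At an unadjusted p under 0.05 there were 3 (RPS9A, RPL22B and RPS29A), against 38.4% of all tested genes. The members' median change was -0.00038, with quartiles of -0.05 and 0.04, whereas all tested genes had a median of 0.02 and quartiles of -0.11 and 0.15. A total of 62 members were higher and 65 lower in the deletion.

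The precision of these values differed among the genes. The median half-width of a member's 95% interval was 0.13, and for 90 of the 127 genes (70.9%) the whole interval lay within 0.3 of zero, a change of less than 1.23-fold. The same held for 49.5% of all tested genes, but for 69.9% of the other genes with a wild-type level of 13 or above, a share near that of the members. At 14 or above it held for 85.4% of members and 76.4% of other genes. For 97 members the estimated change was under 0.1 in size. The groups did not overlap for 19 of the 127 genes (15.0%), 9 higher and 10 lower in the deletion, against 45.2% of all tested genes.

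The members are bright, with wild-type levels from 12.03 for RPL15B, the lesser copy of a large-subunit protein gene, to 14.90 for RPL2A, for a protein near the peptidyl transferase centre. The highest level of any tested gene in wild-type was 15.17. Among 89 members at 14 or above, 0 were called by limma (0 also at an unadjusted p under 0.05), and their groups did not overlap in 16.9%. Among 123 other genes at 14 or above, 13 rose and 12 fell, and the groups did not overlap in 52.8%. Whether signal near the top of the scale understates changes of these genes was not tested.

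**Figure D1:**
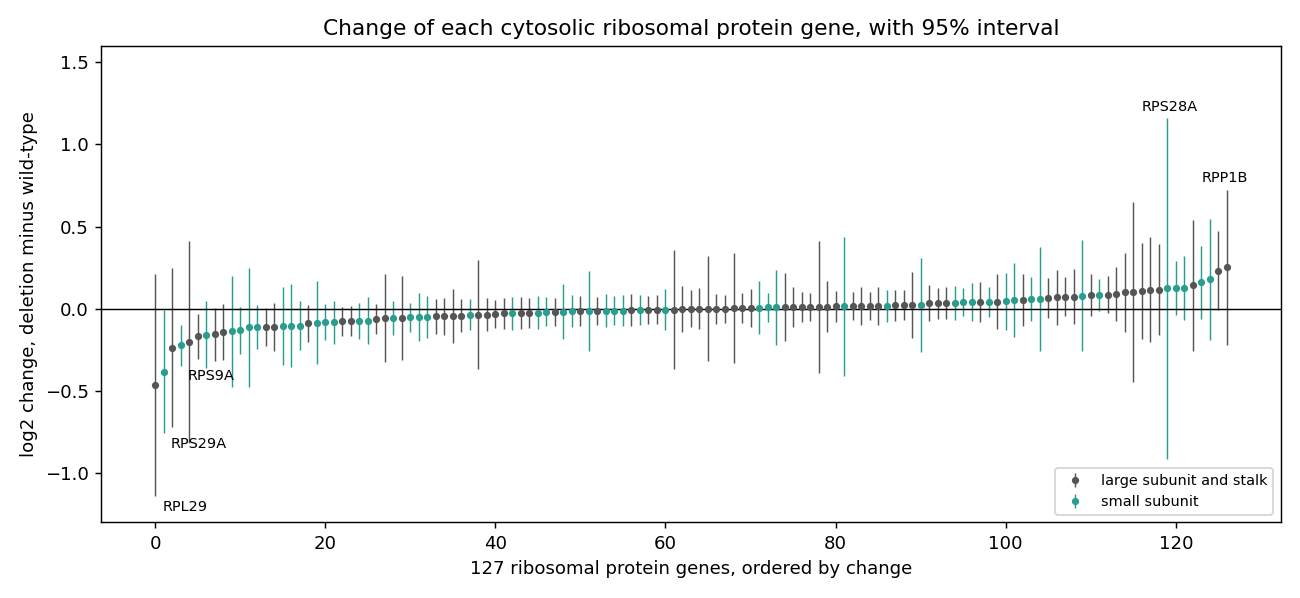
Log2 change (deletion minus wild-type) of the 127 cytosolic ribosomal protein genes in order of size, each with its limma 95% interval; grey points are large-subunit and stalk genes and green points small-subunit genes. Most points lie within 0.1 of zero, RPS9A has a short interval below zero, and RPL29, RPS29A, RPS28A and RPP1B have wide ones.

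The median changes of large- and small-subunit genes both lay near zero. The median change was 0.0021 over the 75 large-subunit genes, of which 41 were higher and 34 lower, and -0.01 over the 52 small-subunit genes, of which 21 were higher and 31 lower. The difference of the medians was 0.015, and the SD between single arrays of one group for the same quantity was 0.010. With array weights the difference was 0.0090, below that SD. The difference is a description of the list and was not tested. Measured as deviations from each gene's mean over the 6 arrays, the median large-subunit gene was at 0.01, 0.03 and -0.07 on the wild-type arrays and -0.0044, -0.0025 and 0.02 on the deletion arrays. The median small-subunit gene was at 0.01, 0.04 and -0.06 in wild-type and -0.02, 0.0009 and 0.02 in the deletion. On wild-type replicate 3 both subunits were lowest.

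Small-subunit genes held the single call. RPS9A codes for uS4, which sits at the entry of the messenger RNA channel. It was at 13.11, 13.04 and 13.18 in wild-type and 12.94, 12.86 and 12.87 in the deletion. All 3 deletion arrays lay below all 3 wild-type arrays, and the gene fell by 0.22 (SE 0.05, 95% interval -0.35 to -0.10, limma adjusted p = 0.029). The call was lost in 8 of 18 alternatives and reversed in 1 more. The losses included leaving out any single array other than wild-type replicate 2 (adjusted p between 0.055 and 0.12). The change stayed between -0.26 and -0.17 in all alternatives except centring on the poly-A controls, where it was 0.76. With the replicate number as a block the adjusted p was 0.058.

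RPS29A, one of a pair of genes for the zinc-binding protein uS14, had the largest difference of the small-subunit genes. It was at 13.82, 13.67 and 13.34 in wild-type and 13.38, 12.99 and 13.31 in the deletion. The groups overlapped only in that deletion replicate 1 exceeded wild-type replicate 3, and the change was -0.38 (SE 0.15, adjusted p = 0.12). RPS28A, for eS28, had the widest spread of all members. It read 13.39, 13.32 and 11.97 in wild-type and 13.28, 12.53 and 13.25 in the deletion. Its change of 0.12 had a 95% interval of -0.91 to 1.16, so no useful bound on a change of RPS28A was obtained.

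Other small-subunit genes toward the lower end were RPS1A, for a protein at the exit of the messenger RNA channel (-0.16), RPS30A (-0.14), RPS28B (-0.13) and RPS14B (-0.10). Toward the upper end lay RPS26A (0.18), whose protein also contacts messenger RNA near the exit channel, RPS11A (0.16), RPS15 (0.13) and RPS14A (0.13). None of these 8 was called, with adjusted p between 0.16 and 0.50. For RPS26A, RPS11A, RPS15 and RPS14A, wild-type replicate 3 minus the mean of the other wild-type arrays was -0.49, -0.30, -0.26 and -0.21. The lowest changes of these genes over the alternatives were -0.03, 0.05, 0.03 and 0.05. RPS14A was at 14.40, 14.37 and 14.17 in wild-type and at 14.45, 14.41 and 14.46 in the deletion. For RPS14A, all deletion arrays were thus above all wild-type arrays, by less than the gap between wild-type arrays.

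Among large-subunit genes none was called (1 at an unadjusted p under 0.05). RPL29 codes for a small dispensable protein, eL29, and had the largest difference of all members. It was at 14.10, 14.06 and 13.23 in wild-type and 13.51, 12.95 and 13.54 in the deletion. Wild-type replicate 3 read below 2 of the deletion arrays, and the change of -0.47 had an SE of 0.28 (95% interval -1.14 to 0.21, adjusted p = 0.26). RPL39, for a protein that lines the exit tunnel, was at 13.89, 13.93 and 13.28 in wild-type and 13.56, 13.22 and 13.61 in the deletion, a change of -0.24 (adjusted p = 0.42). RPL41A, one of the genes for the smallest ribosomal protein, was at 13.39, 13.34 and 12.52 in wild-type and 12.98, 12.62 and 13.04 in the deletion, a change of -0.20 (adjusted p = 0.59). In all 3 genes wild-type replicate 3 and deletion replicate 2 were the low arrays of their groups.

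RPL22B, for the dispensable protein eL22, was steadier. Its levels were 12.88, 12.84 and 12.73 in wild-type and 12.70, 12.60 and 12.65 in the deletion, with no overlap. The change of -0.17 (SE 0.06, 95% interval -0.31 to -0.03) missed the threshold, with an adjusted p of 0.079. It passed in 3 alternatives with a negative change, the lowest adjusted p being 0.019 with array weights. RPL23A, for uL14 at the interface of the subunits, was at 14.18, 14.19 and 13.89 in wild-type and 14.30, 14.43 and 14.23 in the deletion, a change of 0.23 (adjusted p = 0.14). All deletion arrays exceeded all wild-type arrays. RPL4B (-0.16) and RPL9B (-0.14) lay lower, and RPL34A (0.14) and RPL26A (0.12) higher, none of them called. For RPL34A and RPL26A, wild-type replicate 3 minus the mean of the other wild-type arrays was -0.55 and -0.43. Their lowest changes over the alternatives were -0.08 and -0.05.

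The stalk, which recruits translation elongation factors to the large subunit, is built on the anchor protein P0 with the acidic proteins P1 and P2. Its anchor gene RPP0 was among the steadiest transcripts, at 14.77, 14.76 and 14.80 in wild-type and 14.77, 14.77 and 14.76 in the deletion (change -0.01, 95% interval -0.10 to 0.07). RPP1B had the highest change of all members, 0.25, from 14.19, 14.11 and 13.50 in wild-type to 14.29, 14.01 and 14.27 in the deletion. That difference came with a wild-type SD of 0.38 and an adjusted p of 0.38. Without wild-type replicate 3 the change of RPP1B was 0.03, and those of RPP1A, RPP2A and RPP2B were -0.01, -0.01 and 0.0022. With all arrays RPP1A differed by 0.12, RPP2A by 0.05 and RPP2B by 0.07, and 0 of the 5 stalk genes were called.

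**Figure D2:**
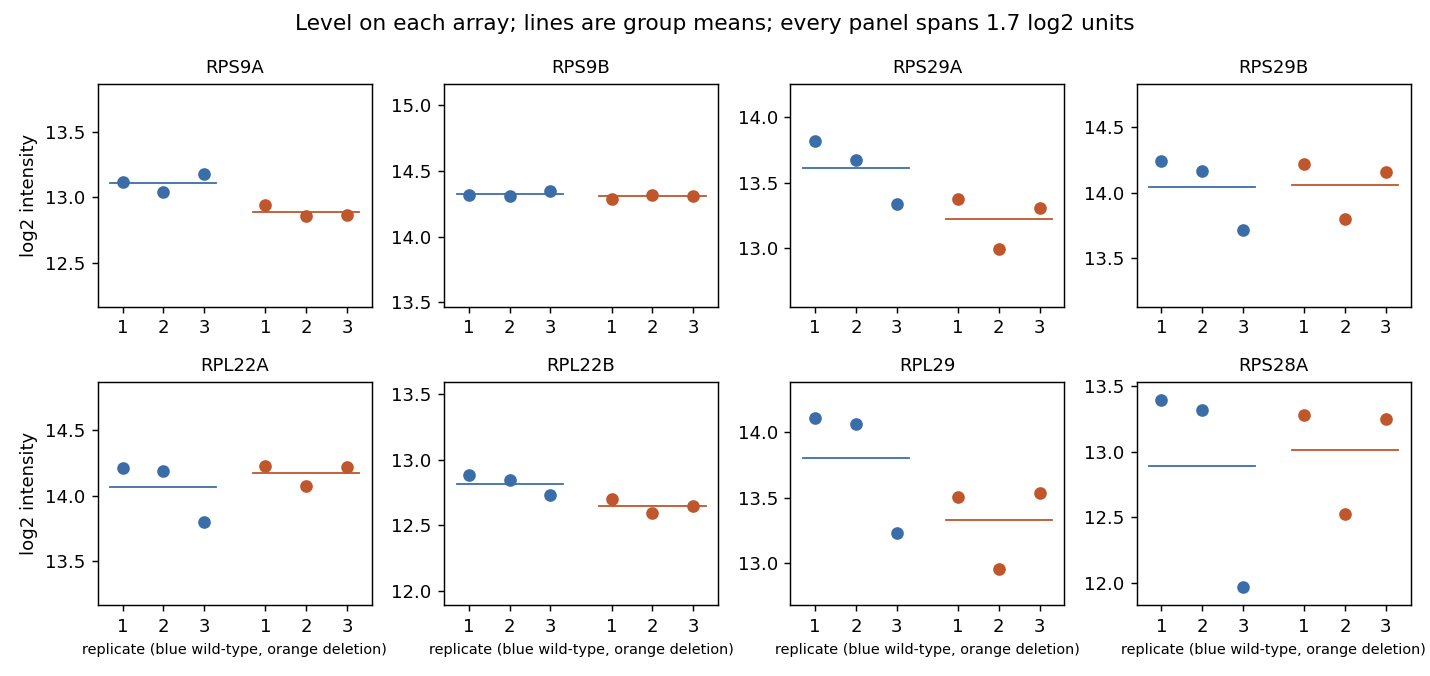
Log2 intensity of 8 ribosomal protein genes on each array, with wild-type replicates in blue, deletion replicates in orange and lines at the group means; all panels cover the same range of log2 units. RPS9A and RPL22B separate the groups by a small step, RPS29A has a mean change of -0.38 with overlapping arrays and RPS29B one of 0.02, and wild-type 3 and deletion 2 are the low arrays for RPS29B, RPL29 and RPS28A.

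Paralogs were compared through the difference log2 A minus log2 B on each array, since a factor that acts equally on both copies cancels in it. A factor that acts unequally on the copies remains. The median SD within groups was 0.0586 for these differences and 0.0585 for single members. The difference between strains in this quantity was tested for 50 pairs with both copies measured, in 1 limma fit with all tested genes. Of these, 2 pairs were called (4% of 50), RPS29A with RPS29B and RPS9A with RPS9B, against 22.3% of the 5499 rows of that fit. At an unadjusted p under 0.05 there were 9 of 50, against 38.4% of all tested genes in the fit of genes alone. In 30 pairs the A copy changed more upward than the B copy and in 20 more downward, with a median of 0.02. For 31 pairs the difference was under 0.1 in size, and for 39 its 95% interval lay within 0.3 of zero. The groups did not overlap for 13 pairs (26.0%), against 45.1% of all rows.

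RPS29A against RPS29B gave the smallest adjusted p of any member or pair. The A-minus-B value was -0.43, -0.50 and -0.38 on the wild-type arrays and -0.84, -0.81 and -0.85 on the deletion arrays. The groups were far apart relative to the spread within each, with SDs of 0.06 and 0.03. RPS29A fell relative to RPS29B by 0.40 (SE 0.045, 95% interval -0.51 to -0.29, adjusted p = 0.0040), which is 1.32-fold. RPS29B itself was at 14.24, 14.17 and 13.72 in wild-type and 14.22, 13.80 and 14.16 in the deletion, a change of 0.02. The low arrays were the same for both copies. On the probe sets used here, the difference between copies within each group was smallest on those arrays.

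Both RPS29 genes have 2 probe sets, 1 of each pair of a type that can bind related transcripts. With the probe sets of the unique type for both copies the values were -0.66, -0.78 and -0.76 in wild-type and -1.15, -1.23 and -1.19 in the deletion. RPS29A fell relative to RPS29B by 0.46 on these. Deletion replicate 2 then had the largest difference between copies of its group, and wild-type replicate 3 no longer had the smallest. Over the 4 possible combinations of probe sets the difference lay between -0.46 and -0.35, with no overlap of groups in any. The call was kept in 17 of 18 alternatives, with adjusted p between 0.0012 and 0.044. With arrays centred on the poly-A controls the difference was the same -0.40 but its adjusted p was 0.27, since that centring leaves differences between copies as they are and alters only the other rows of the fit.

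RPS9A against RPS9B gave -1.20, -1.27 and -1.17 in wild-type and -1.34, -1.46 and -1.44 in the deletion. RPS9A fell relative to its paralog by 0.20 (SE 0.05, adjusted p = 0.037). RPS9B was at 14.32, 14.31 and 14.34 in wild-type and 14.29, 14.32 and 14.31 in the deletion (change -0.02, 95% interval -0.11 to 0.07). The call for the pair was lost in 9 of 18 alternatives, including the replicate block (adjusted p = 0.064) and leaving out any single array other than wild-type replicate 2 (0.056 to 0.14).

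**Figure D3:**
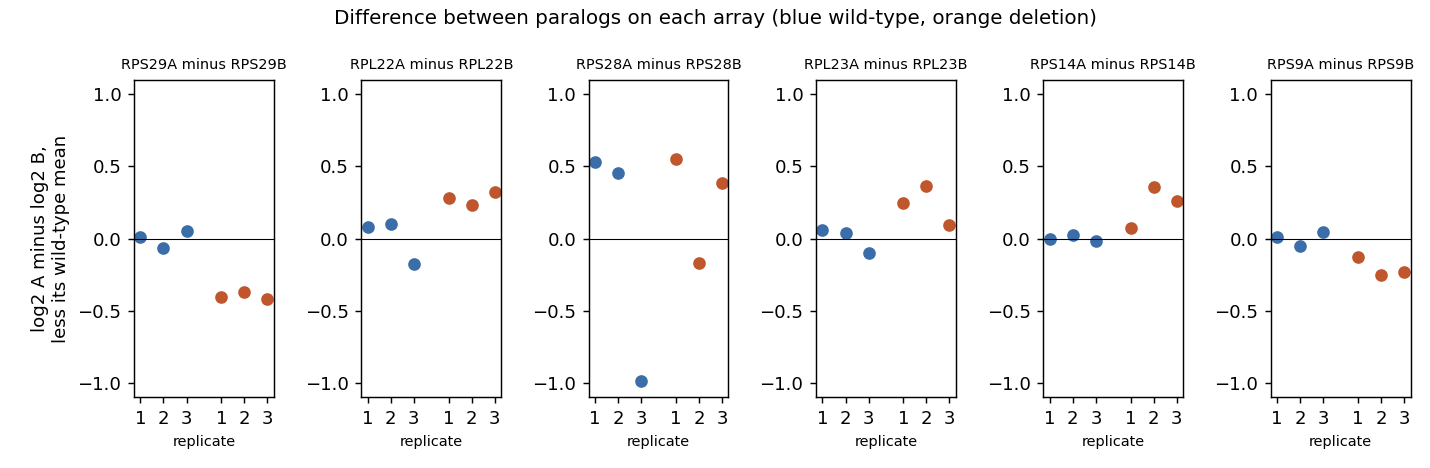
Log2 A minus log2 B on each array, less its wild-type mean, for the 6 pairs with the largest difference between strains; wild-type replicates are blue and deletion replicates orange. RPS29 and RPS9 are lower in all deletion arrays, RPL22, RPL23 and RPS14 are higher, and RPS28 is spread over more than 1 unit by wild-type 3 and deletion 2.

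Another 11 pairs had groups that did not overlap and missed the threshold, 7 with the A-minus-B value higher in the deletion and 4 with it lower. RPL22A minus RPL22B was 1.32, 1.35 and 1.07 in wild-type and 1.52, 1.48 and 1.57 in the deletion, a difference of 0.28 (SE 0.08, adjusted p = 0.059). RPL22A itself changed by 0.11 and was not called (limma adjusted p = 0.54). Its wild-type replicate 3 minus the mean of the other wild-type arrays was -0.40. In yeast the eL22 protein is known to act on the RPL22B pre-messenger RNA. RPS14A minus RPS14B was 1.40, 1.43 and 1.39 in wild-type and 1.48, 1.76 and 1.67 in the deletion, a difference of 0.23 (SE 0.08, adjusted p = 0.076). The uS11 protein of yeast is likewise known to bind the RPS14B pre-messenger RNA. RPL23A minus RPL23B was -0.16, -0.18 and -0.32 in wild-type and 0.03, 0.14 and -0.13 in the deletion, a difference of 0.23 (SE 0.08, adjusted p = 0.093). RPL23B was near level, with a change of -0.0005. RPL36A minus RPL36B, named after its value was seen, differed by -0.16 (SE 0.05, adjusted p = 0.078). The other 7 of these pairs differed by -0.13 to 0.15, with adjusted p between 0.12 and 0.37. RPS28A minus RPS28B differed by 0.26 with an SE of 0.44 and overlapping groups.

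A set of 35 pairs had both copies on probe sets of the unique type, and for 15 at least 1 copy was on a shared type, where signal of the paralog cannot be told apart. Among the 35, 1 pair was called (RPS9A with RPS9B) and 22 differed by under 0.1. There were 20 members with 2 probe sets. Their changes differed between the 2 probe sets by a median of 0.05 and at most 0.13, and had the same sign in 13 of 20.

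**Figure D4:**
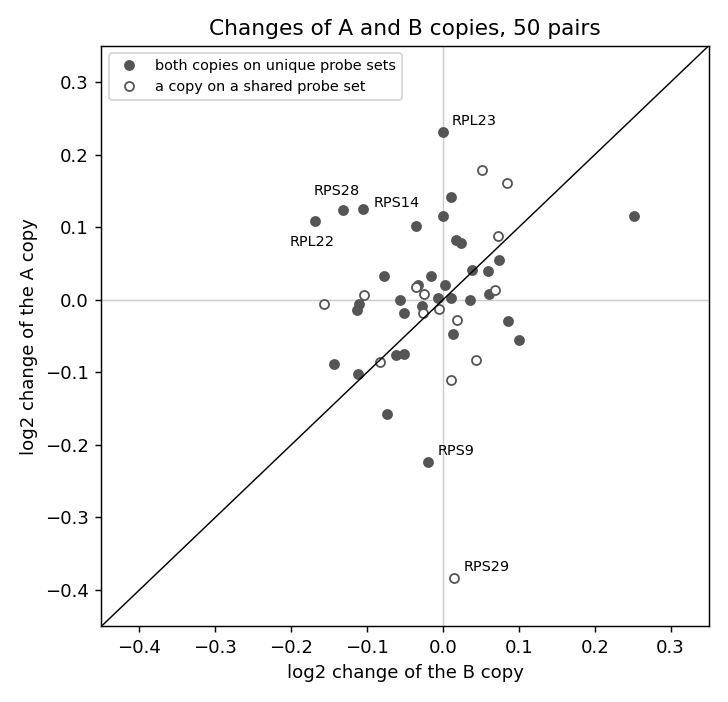
Log2 change of the A copy against log2 change of the B copy for 50 pairs, with the line of equal change; filled points have both copies on unique probe sets. Most points lie close to the origin, RPS29 and RPS9 lie below the line, and RPL22, RPS28, RPS14 and RPL23 lie above it.

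Most of the variation of ribosomal protein transcripts was between arrays of one strain. The first principal component of the 127 genes held 75.4% of their variance. Its scores were -1.11, -0.95 and 2.09 for the wild-type arrays and -0.56, 1.05 and -0.53 for the deletion arrays. It therefore set wild-type replicate 3 and deletion replicate 2 apart from the other 4 arrays and not one strain from the other. The second, with 17.3%, had scores of 0.47, 0.55 and 0.63 in wild-type and -0.51, -0.73 and -0.41 in the deletion, and so set the strains apart. The first 2 components of all tested genes held 61.8% and 21.0% of their variance.

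Several of the genes that carried this spread code for small proteins. The pooled SD within groups was 0.64 for RPS28A, 0.42 for RPL29, 0.38 for RPL41A, 0.34 for RPL37A and 0.30 for RPL39, against a median of 0.06 over members. In each of the 20 members with the widest spread, wild-type replicate 3 was the lowest wild-type array and deletion replicate 2 the lowest deletion array. Over all 127 genes this held for 79 and 64. The 20 members were ranked on the same values, and the matching share over all tested genes is not given here. For RPS28A, wild-type replicate 3 minus the mean of the other wild-type arrays was -1.39, and deletion replicate 2 minus the mean of the other deletion arrays was -0.74. For RPL37A these differences were -0.72 and -0.40.

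Spread went with the annotated gene span, which counts introns and so only bounds the transcript's length. Across the 127 genes, which share the same 6 arrays, the SD within groups and the span had a Spearman rho of -0.52 and a Pearson r of -0.50. The SD also went with brightness (rho -0.60). Among 498 other genes at 13 or above, the SD and the span had a weaker rho of -0.26 and r of -0.16. The 17 members with spans of at most 400 bases, a limit chosen after the values were seen, had a median SD of 0.16, and the other 110 had 0.05. The short members' median deviation was 0.08, 0.10 and -0.22 on the wild-type arrays and 0.05, -0.06 and 0.05 on the deletion arrays. Other genes at 13 or above with such short spans gave 0.02, 0.07 and -0.21 in wild-type and 0.05, 0.02 and 0.06 in the deletion. The low reading on wild-type replicate 3 was thus present outside the ribosomal protein genes. On deletion replicate 2 the median of those other genes was above zero, but it was the lowest of the 3 deletion arrays. Poly-A spike-in controls were at 7.77, 7.67 and 8.50 in wild-type and 6.83, 7.36 and 6.80 in the deletion, highest in each strain on the same pair of arrays. The part of RNA input or of recovery of short RNA in these values was not tested.

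**Figure D5:**
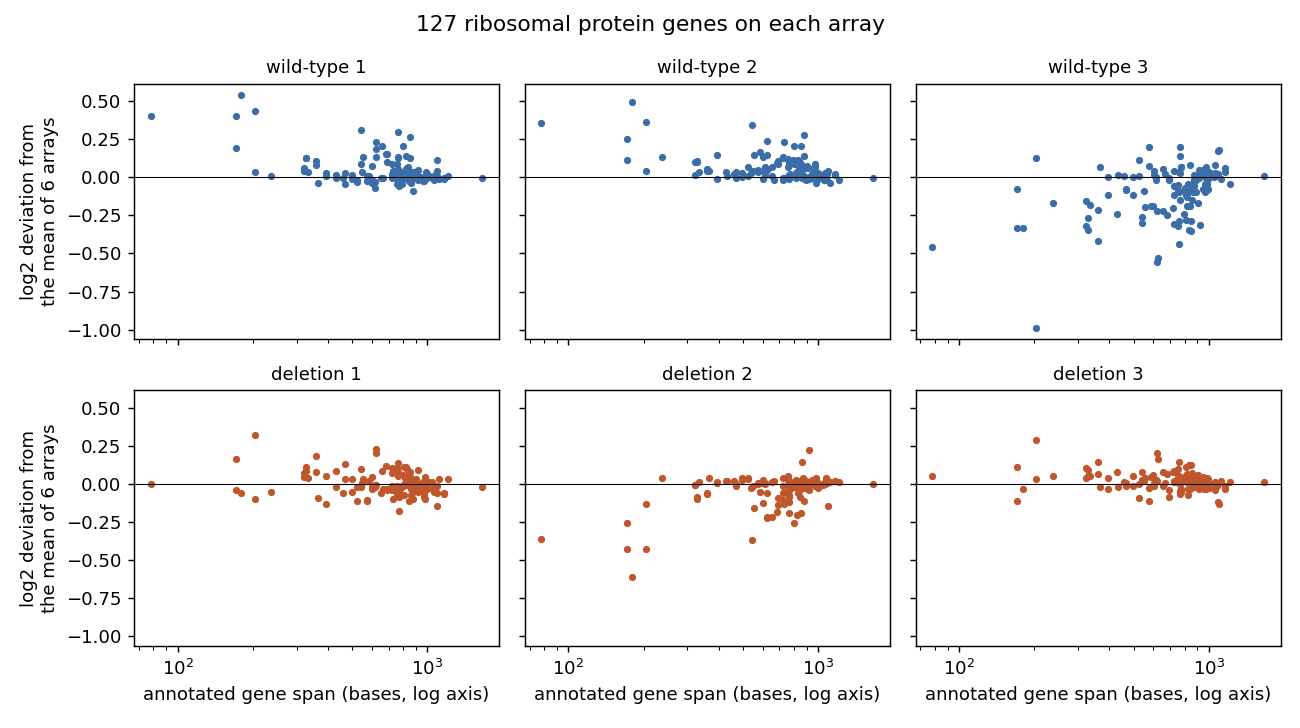
Deviation of each of the 127 genes from its mean over the 6 arrays (log2) against the annotated gene span in bases on a log axis, 1 panel per array. The shortest genes lie mostly above zero on wild-type 1 and 2 and below it on wild-type 3 and deletion 2, and on wild-type 3 many genes of intermediate span lie below zero as well.

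Leaving out wild-type replicate 3 and deletion replicate 2 together, a choice made after seeing the values, changed which members were called. RPS9A was no longer called (-0.17, adjusted p = 0.12). RPL29 (-0.56, adjusted p = 0.019), RPL41A (-0.35, adjusted p = 0.036), RPL39 (-0.32, adjusted p = 0.037) and RPS29A (-0.40, adjusted p = 0.049) passed, all lower in the deletion. These 4 of 127 compare with 3.27% of all tested genes called lower in the same fit (9.86% in either direction), a share near that of the members. Between the left-out pair of arrays themselves the deletion minus wild-type difference was -0.28 for RPL29 and -0.35 for RPS29A, but -0.07 for RPL39 and 0.10 for RPL41A. RPS29A relative to RPS29B fell by 0.39 in the same fit (adjusted p = 0.031). RPS28A, the member with the widest spread, was at -0.09 on the 4 remaining arrays.

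Lists of genes around the ribosome were read beside the 22.5% of all tested genes called, and the shorter ones are too short for a count to show much. Of 14 regulators of ribosomal protein and glycolytic genes 1 fell, GCR1, the partner of GCR2, by 0.95 (SE 0.08, adjusted p = 0.0014), from 11.81 ± 0.15 to 10.86 ± 0.03 (SD, n = 3). RAP1 (-0.12), FHL1 (0.09), IFH1 (-0.09), SFP1 (0.11) and HMO1 (-0.04) were not called. Of 9 elongation factor genes 1 rose, HEF3, the minor paralog of YEF3, by 0.19. That was from 8.57, and the call was lost in 12 of 18 alternatives. Of 25 initiation factor genes and 7 genes of ribosome-bound factors, 0 were called by limma, and ASC1, the yeast RACK1 gene, differed by -0.01.

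Of 19 genes for chaperones and importers of ribosomal proteins, NAP1 rose by 0.20 and PSE1, a nuclear import receptor, by 0.15, and BCP1, the chaperone of uL14, fell by 0.26. These calls were lost in 6, 11 and 7 of 18 alternatives, and the BCP1 change reversed in 1 more. Falls were called for 11 of 66 mitochondrial ribosomal protein genes, whose median change was -0.11, with MRPL7 at -0.35 and RSM22 at -0.27. MRPL7 and RSM22 each lost the call in 4 of 18 alternatives and reversed in 1 more. Falls were also called for 11 of 62 NOP, UTP, RRP and DBP genes of ribosome biogenesis, whose median change was -0.14. None of either list rose, and 55 and 51 genes did not pass. The smallest adjusted p among these was that of RRP14 at -0.44 (adjusted p = 0.0041), which kept its call with a fall in 17 of 18 alternatives. The calls of NOP16, RRP15 and NOP53 were lost in 6, 4 and 4 of 18, and each reversed in 1 more. Against the 8.35% of tested genes called lower, the cytosolic ribosomal protein genes gave 1 of 127.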

How the data were processed

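The 6 arrays, 3 per strain, were grouped by the sample titles. The authors deposited 1 table of probe-set intensity values on a linear scale (10928 probe sets). Per the submitters' processing notes they used R 2.8.0, the affy package and RMA, which corrects background, equalises the arrays' distributions and summarises probes; no source used here gives the genome build. Log2 was taken here with no further normalization. The platform annotation and RefSeq assembly R64 named 5498 probe sets; the brightest per gene left 5449 genes. The members' 147 probe sets gave 127 genes, 25 of them on types that can bind related transcripts (suffix s or x). Background was the 95th percentile of 1746 probe sets of genes outside R64; all members exceeded it on every array. No sequence table was used here, so the planned descriptions of promoter motifs and of protein identity between paralogs were not run.

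Strains were compared with limma 3.58.1 in R 4.3.3 (lmFit, eBayes, no covariates), two-sided, Benjamini-Hochberg adjusted over all rows, after a check on simulated data. The number of arrays limits the precision. Members, lists and tests were chosen with earlier results of these data known. Named genes are GCR2, called members, the 10 highest and 10 lowest changes, stalk genes, the 6 pairs differing most, the dimmest and brightest members, and up to 4 called genes per list; genes outside this rule were chosen after their values were seen. Alternatives are listed in the closing section.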

Additional observations from a re-analysis of the deposited data

How the results depend on the processing

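Alternatives were a replicate block, omission of arrays, other normalizations, probe-set rules, priors, array weights and a stricter threshold; 18 settings gave values for single genes and pairs. Of 916 single values, 778 kept their side of the threshold without a reversal, 86 lost a call, 29 gained one and 23 reversed; sign changes of values called in neither fit are not counted as reversals. Leaving out 1 array gave 406 to 1225 called genes, 0 to 2 called members, 1 to 2 called pairs, a members' median of -0.03 to 0.01, a large-minus-small difference of 0.015 to 0.031 and an A-minus-B median of 0.0022 to 0.038. The count of all called genes was 733 with the replicate block, 328 without wild-type replicate 3 and deletion replicate 1, 537 without wild-type replicate 3 and deletion replicate 2, and 347 at an adjusted p under 0.01. It was 4997 with poly-A centring. Called members were 0 with the block, at the stricter threshold and without wild-type replicate 3 and deletion replicate 1, 2 with quantile normalization (RPL22B and RPS9A) or without wild-type replicate 3 (RPL22B and RPS29A), 4 with array weights (RPL22B, RPL31B, RPS29A and RPS9A) or without wild-type replicate 3 and deletion replicate 2, and 125 with poly-A centring. Called pairs were 1, always RPS29A with RPS29B, with the block, at the stricter threshold and without either double set of arrays, 4 with array weights and 0 with poly-A centring. Same-numbered arrays did not pair throughout: over all tested genes their deviations correlated at 0.53, -0.17 and -0.44 for replicates 1, 2 and 3. Wild-type replicate 1 correlated best with deletion replicate 1, but wild-type replicate 2 did so with deletion replicate 3 (0.49) and wild-type replicate 3 with deletion replicate 2 (0.58). The block ended the call of RPS9A.

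Centring on the poly-A controls moved the median change of the members to 0.98, and all 23 reversals arose there. Under it RPS9A was at 0.76, RPL39 at 0.74, RPL41A at 0.78, RPL22B at 0.81, RPS1A at 0.82, RPL4B at 0.82, RPL9B at 0.84, RPS30A at 0.84, RPP0 at 0.97, RPS28B at 0.85, RPL23B at 0.98, RPS14B at 0.88 and RPS9B at 0.96. Among the other genes GCR1 was at 0.033, BCP1 at 0.72, RSM22 at 0.71, MRPS28 at 0.72, MRPL7 at 0.63, MRPS9 at 0.73, RRP14 at 0.54, NOP16 at 0.79, RRP15 at 0.70 and NOP53 at 0.52. The cause was not tested. Medians and their differences kept within the spread between arrays elsewhere, apart from the single-array ranges above. No group had enough arrays for a test of single outlying arrays.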
